A study of Mus musculus with 15 samples.

Results

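Fatty acid synthesis in the mouse heart was followed through 9 genes: the regulators Mid1ip1, Thrsp and Srebf1 and the enzyme genes Acaca, Acacb, Fasn, Scd1, Scd2 and Elovl6. They are measured by 18 probe sets of the 45101 on the array, and are 9 of the 18194 genes that the array annotation names by a single symbol. The genes were selected on their measured signals on these arrays, over time and in both arms, so their courses over time are given as a description. All 18 probe sets carry 1 of these symbols alone. After a filter on low signals, 12 of the 18 were tested, with at least 1 for each of the 9 genes.

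Whole mouse hearts were profiled on 15 Affymetrix arrays, 1 RNA sample each. Aldosterone, the mineralocorticoid hormone of the adrenal cortex, was given in the first arm, which has 1 array at each of 0.5, 1, 2, 3, 4, 5 and 12 h. The control arm has 1 array at each of the same 7 times. At 0 h stands 1 more control array, labelled as not injected and called here the heart without injection. The labels give no strain, sex, age or dose, do not say what the timed controls received, and do not say whether an array is 1 animal or a pool. The p-values therefore reflect no more than how arrays differ, which may be technical.

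De novo lipogenesis starts when acetyl-CoA carboxylase turns acetyl-CoA into malonyl-CoA. Fatty acid synthase then builds palmitate, ELOVL6 lengthens it and the stearoyl-CoA desaturases put in a double bond. MID1IP1 (also MIG12) binds acetyl-CoA carboxylase and helps it to polymerise, its paralog THRSP (Spot 14) can pair with it, and SREBP-1, from Srebf1, drives transcription of most of the enzymes. Cardiomyocytes burn fatty acids more than they make them, and the product of the mitochondrial carboxylase ACACB serves there to restrain CPT1 and with it fatty acid import. Adipocytes, which lie on the outside of the heart, express the synthetic enzymes strongly.

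The upstream regions of 3 of the genes are shown because the course over time turns on Mid1ip1, while Fasn and Thrsp are among the genes whose signals went with white fat markers. Each runs from 250 bases before to 50 bases after a RefSeq start on GRCm38.p6, and 7 of the 9 genes had such a window, 9 windows in all. Mid1ip1 lies at chrX:10717365-10719702, and its window is chrX:10717115-10717414 on the plus strand, with the match to ACANNNTGT, the spacing of a steroid receptor element, in capitals. The windows of Fasn (chr11:120824498-120824797, minus strand) and Thrsp (chr7:97417501-97417800, minus strand) have their CCAAT matches in capitals, on either strand.
Mid1ip1: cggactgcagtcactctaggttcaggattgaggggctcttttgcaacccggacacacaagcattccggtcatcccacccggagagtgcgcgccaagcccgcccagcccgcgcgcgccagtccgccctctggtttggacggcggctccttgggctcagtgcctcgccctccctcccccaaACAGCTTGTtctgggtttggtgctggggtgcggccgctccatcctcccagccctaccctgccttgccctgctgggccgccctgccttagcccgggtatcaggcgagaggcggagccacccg
Fasn: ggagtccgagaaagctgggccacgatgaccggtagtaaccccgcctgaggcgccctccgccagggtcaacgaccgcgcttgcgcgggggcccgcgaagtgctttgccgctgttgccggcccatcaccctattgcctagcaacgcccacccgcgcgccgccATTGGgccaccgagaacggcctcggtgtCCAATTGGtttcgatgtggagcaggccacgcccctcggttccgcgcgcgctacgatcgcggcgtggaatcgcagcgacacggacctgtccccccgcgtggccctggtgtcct
Thrsp: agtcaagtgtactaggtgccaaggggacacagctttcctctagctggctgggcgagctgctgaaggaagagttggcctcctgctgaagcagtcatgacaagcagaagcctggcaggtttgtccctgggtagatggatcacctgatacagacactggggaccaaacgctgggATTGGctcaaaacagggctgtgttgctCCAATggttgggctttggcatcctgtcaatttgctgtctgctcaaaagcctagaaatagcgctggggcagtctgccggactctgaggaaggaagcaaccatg
The match in Mid1ip1 spans -71 to -63 from the start. It is 1 of 9 windows of these genes with ACANNNTGT, a pattern that 6.85% of 32851 RefSeq windows hold. CCAAT, the NF-Y box, was found in 5 of the 9 windows and in 37.4% of all. Fasn has 3 matches, of which a pair overlaps (-62 to -58 and -59 to -55), and Thrsp has 2. The E-box CACGTG and the sterol element TCACNCCAC were searched on both strands as well and had no match in the 9 windows, against 7.15% and 1.24% of all windows. A match describes the letters in the window and nothing about binding.

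Signals are given as log2 of the deposited signal plus a pseudocount of 167.8, quantile normalized between arrays. On this scale a step of 1 is a doubling for strong probe sets and understates the change of weak ones. Levels of different probe sets are not comparable with each other. Where a gene has several probe sets, the one with the highest mean signal stands for it.

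The arrays differed in ways that touch these genes. Every array had a 2% trimmed mean of 1500, while array medians ran from 413.8 to 741.4. Most cardiomyocyte markers were even, with Myh6 (alpha myosin heavy chain) between 18.05 and 18.28 in the aldosterone arm and between 18.11 and 18.21 in the control arm. Signals this high are held nearly equal between arrays by the quantile normalization. Their evenness therefore says little about how much cardiomyocyte RNA each array held. Mybpc3 and Ryr2 of that list varied more, with ranges of 0.68 and 0.53 over all arrays. Of 12 white fat markers 9 were found, none listed at 0, and their mean, as centred log2 values, ran from -1.02 to 0.85 in the aldosterone arm and from -0.91 to 1.36 in the control arm. The mean of the lung epithelial markers was high on both 1 h arrays alone, at 3.63 in the aldosterone arm and 2.74 in the control arm. Single markers differed from it. Scgb1a1 was also raised in controls at 2 h (11.49) and 3 h (11.19), and Cldn18 was not raised at 1 h (9.37 in each arm). The Gapdh 3′/5′ log2 ratio, a measure of RNA integrity and labelling, ran from -0.23 to 3.36 in the aldosterone arm and from -0.17 to 3.92 in the control arm. Scanning fell on 3 days, and both arms of a time always shared a day. The array records also name 2 chip lots, 1 of which held the 0.5 and 3 h arrays alone. They name a station as well, which the arms of a time shared except at 5 h.

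The first comparison asks whether aldosterone moved the lipogenesis genes. No difference between the arms passed the test for any of the 9 genes. By limma with time as a block and Benjamini-Hochberg adjustment, 0 of the 12 tested probe sets were called, against 0% of all 21296 probe sets (0 called, 927 at an unadjusted p under 0.05). The adjusted p of the 9 genes ran from 0.973 to 0.997.

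Between the arms, single times differed by -0.21 to 0.43 for Mid1ip1 and by -0.27 to 0.08 for Srebf1. Mid1ip1 had signals of 13.93, 14.44 and 15.40 (lowest, median and highest of 7) in the aldosterone arm, against 14.03, 14.39 and 14.98 in the control arm. The arms overlapped, and aldosterone minus control averaged 0.07 ± 0.08 (moderated limma SE, above 0 in 4 of 7 pairs, limma adjusted p = 0.973). Each ± below is such an SE, which draws on the spread of other probe sets and is not that of the 7 differences alone. Srebf1, the gene of SREBP-1, had 11.83, 12.12 and 12.36 with aldosterone, against 11.90, 12.20 and 12.39 in controls. Its difference was -0.11 ± 0.08, higher with aldosterone in 2 of 7 pairs. Thrsp had 11.93, 12.40 and 13.62 with aldosterone and 11.76, 12.29 and 13.43 in controls, a difference of 0.14 ± 0.20. The 2 extremes of Thrsp came from different times, the 1 h array in the aldosterone arm and the 2 h array in the control arm. Its second tested probe set gave -0.10 ± 0.14.

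The carboxylase genes did not separate the arms. Acaca, of the cytosolic carboxylase, had 10.27, 10.49 and 11.56 with aldosterone and 9.42, 10.78 and 11.87 in controls, a mean difference of 0.03 ± 0.23. Acacb had 12.77, 13.43 and 13.73 with aldosterone and 12.74, 13.59 and 13.86 in controls. Its mean difference was -0.11 ± 0.17, with the single times running from -0.95 to 0.70.

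Scd1 and Fasn had the widest spread of the single-time differences among the 9 genes, with SDs of 1.91 and 1.36. Scd1, the main stearoyl-CoA desaturase of fat and liver, had signals of 11.94, 16.32, 12.72, 12.77, 15.63, 11.16 and 13.18 with aldosterone at 0.5, 1, 2, 3, 4, 5 and 12 h. The control arm had 11.00, 15.14, 16.69, 14.25, 14.25, 12.27 and 13.92 at the same times. The arms crossed more than once, and the 2 h pair was the farthest apart, at -3.97. The mean difference was -0.54 ± 0.51 (higher with aldosterone in 3 of 7), and without the 2 h pair 0.03. A second Scd1 probe set gave 0.04 ± 0.36 and was higher with aldosterone in 6 of 7 pairs.

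Fasn, of fatty acid synthase, behaved likewise, with single times between -2.36 (2 h) and 1.65 (1 h) and a mean difference of 0.06 ± 0.37. Its signals were 10.49, 11.05 and 13.19 with aldosterone, against 10.08, 11.22 and 13.55 in controls. Scd2, the desaturase of brain and developing tissue, had 10.82, 11.44 and 13.00 with aldosterone and 10.38, 11.26 and 12.26 in controls. Its difference of 0.19 ± 0.17 (higher in 5 of 7) did not pass, and its second tested probe set gave -0.06 ± 0.27. Elovl6, the elongase that acts on palmitate, had 9.59, 10.43 and 10.78 with aldosterone and 9.51, 9.78 and 11.13 in controls, a difference of 0.19 ± 0.20. The 95% limma interval of the mean difference lay within a 2-fold change in either direction for 8 of the 9 genes, the exception being Scd1 (-1.65 to 0.56). This count rests on the moderated SE and is no bound from the 7 differences alone. For Fasn, with an interval of -0.74 to 0.86, those differences had an SD of 1.36.

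**Figure D1:**
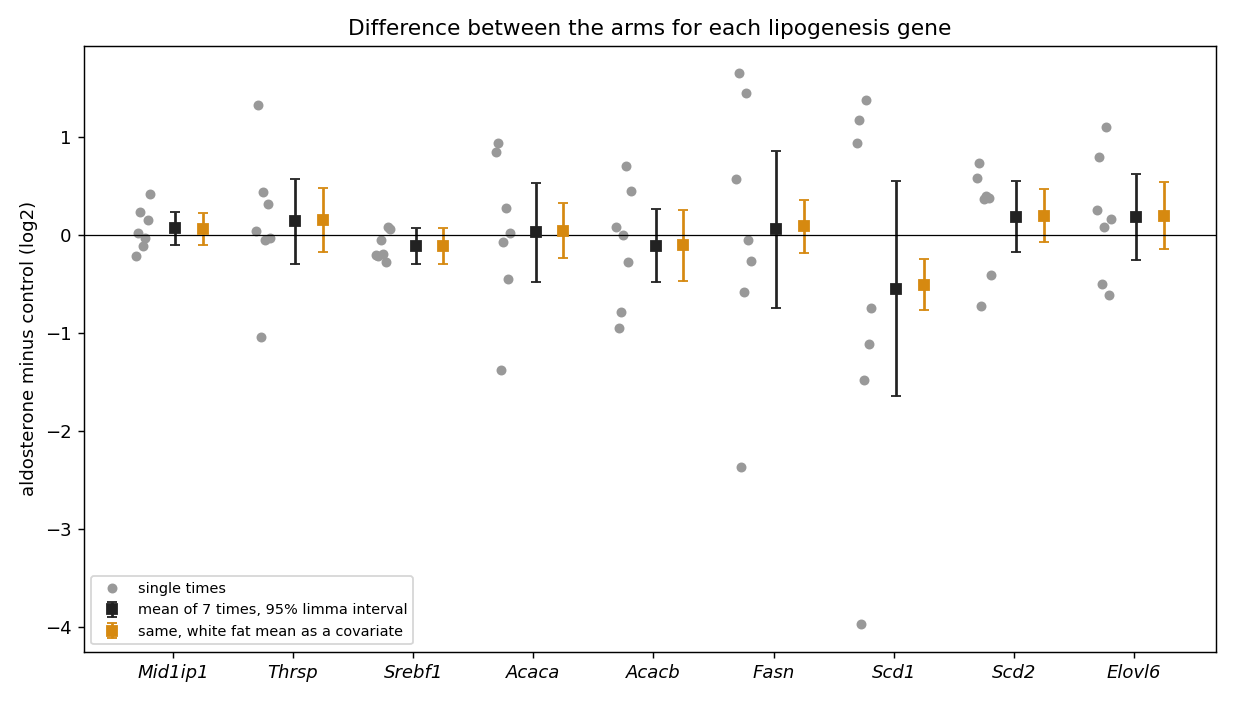
Difference between the arms (aldosterone minus control, log2) for each gene: grey points are the 7 single times, black squares their mean with its 95% limma interval, and orange squares the same with the white fat marker mean as a covariate. The single times of Scd1 run down to -3.97 and those of Fasn to -2.36, and with the covariate the SE of Scd1 is 4.30 times smaller.

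Whether the difference changed with time was tested as 3 to 5 h against 0.5 to 2 h. By limma 0 of the 12 probe sets were called, against 0% of all 21296 (0 called, 1443 at an unadjusted p under 0.05). Acacb had the largest window difference for its SE among the 9 genes, 0.69 ± 0.30 (adjusted p = 0.737). The second probe set of Scd2 had 0.97 ± 0.45 (adjusted p = 0.742). The Gapdh log2 ratio also differed between the arms in these windows. Aldosterone minus control was -0.06, 2.54 and 3.00 at 0.5, 1 and 2 h, and -0.66, -1.04 and 0.81 at 3, 4 and 5 h. Its part in these 2 window differences was not tested.

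The other steps around fatty acid synthesis were read from 6 lists of 90 genes, of which 71 were tested. With aldosterone 37 of them had a positive and 34 a negative difference, 0 were called by limma and 2 had an unadjusted p under 0.05, Mvk and Insig2. The medians of the lists ran from -0.07 to 0.05, and the median of all tested genes was 0.01. In citrate, acetyl-CoA and NADPH supply (9 tested, 5 positive), Idh1, a source of NADPH, had 0.27 ± 0.17 and Slc25a1, the citrate carrier, -0.16 ± 0.23. Acss1, which makes acetyl-CoA in mitochondria, had 0.08 ± 0.07, and Acly, which cleaves citrate, 0.13 ± 0.21.

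Among other desaturases and elongases (8 tested, 4 positive), the delta-6 desaturase gene Fads2 had -0.37 ± 0.22, and Tecr, the last enzyme of the elongation cycle, -0.08 ± 0.11. The triglyceride genes (10 tested, 6 positive) kept within small differences, with the lipid droplet gene Plin5 at -0.10 ± 0.06 and Dgat2, which adds the last acyl chain, at -0.11 ± 0.07. Of the transcription factors and SREBP processing genes (16 tested, 6 positive), Insig2, which holds SREBPs in the endoplasmic reticulum, had 0.23 ± 0.10 and the coactivator gene Ppargc1b -0.25 ± 0.17. Usf2, an E-box factor, had -0.24 ± 0.16. None of these passed the test.

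In cholesterol synthesis and uptake (15 tested, 9 positive), mevalonate kinase, Mvk, had 0.64 ± 0.25 and was higher with aldosterone in 6 of 7 pairs (limma adjusted p = 0.973). Dhcr7, of the last step, had -0.32 ± 0.19, and Lss, which closes the sterol rings, 0.26 ± 0.19. For the control of acetyl-CoA carboxylase and the use of malonyl-CoA (13 tested, 7 positive), the AMP-activated kinase subunits Prkaa2 and Prkab1 had -0.24 ± 0.12 and -0.12 ± 0.08. Cpt1a, a form of the transferase that malonyl-CoA inhibits, had 0.16 ± 0.12.

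The second comparison is over time. With both arms in 1 fit, 2 of the 9 genes, Mid1ip1 and Scd2, were called for time by limma's F test, against 1.69% of 11226 genes. By probe set these were 2 of the 12 tested, against 1.93% of all 21296 (410 called, 4054 at an unadjusted p under 0.05). Since the genes were proposed from these courses, the count is a description.

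Mid1ip1 was highest at 12 h and lowest at 3 h in both arms. Its signals with aldosterone were 14.31, 14.41, 14.44, 13.93, 14.44, 14.54 and 15.40 at 0.5, 1, 2, 3, 4, 5 and 12 h. The control arm had 14.52, 14.39, 14.21, 14.03, 14.46, 14.39 and 14.98, and the heart without injection 14.52. Both 12 h arrays stood above all 12 earlier timed arrays, at a mean of 15.19 against 14.34 (SD of the earlier arrays 0.19), a 1.80-fold difference. This held for 1 of the 9 genes and for 3.14% of all 11226. The time means fell in the order 12, 5, 4, 0.5, 1, 2 and 3 h, and only 12 h and 3 h stood clear of their neighbour in this order, the others overlapping with the next. From the lowest to the highest time the range was 1.21, or 2.31-fold.

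Both ends of the course could be set against other times of the same scan day. On the day that held the 1, 4 and 12 h pairs, the 12 h arrays averaged 15.19, above the 4 earlier arrays at 14.39 to 14.46. Both 12 h arrays were run on station 2 and the 4 earlier ones on station 1, so time and station cannot be told apart there. On the day of the 0.5 and 3 h pairs, the 3 h arrays averaged 13.98, below the earlier arrays at 14.31 and 14.52. The Gapdh ratio of the 12 h arrays was 2.50 with aldosterone and 3.92 in control, among the higher values of each arm. Other arrays with a ratio above 3, aldosterone at 1 and 2 h and control at 4 h, had Mid1ip1 signals of 14.41, 14.44 and 14.46. With the Gapdh ratio as a covariate, with scan day as a block or without the variance trend, 0 of the 9 genes were called for time. Of all 21296 probe sets, 215, 107 and 46 were called in these settings. Without the 3 h pair 0 of the 9 genes were called (265 of all probe sets), and without the 12 h pair Scd2 alone of the 9 (239 of all probe sets).

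**Figure D2:**
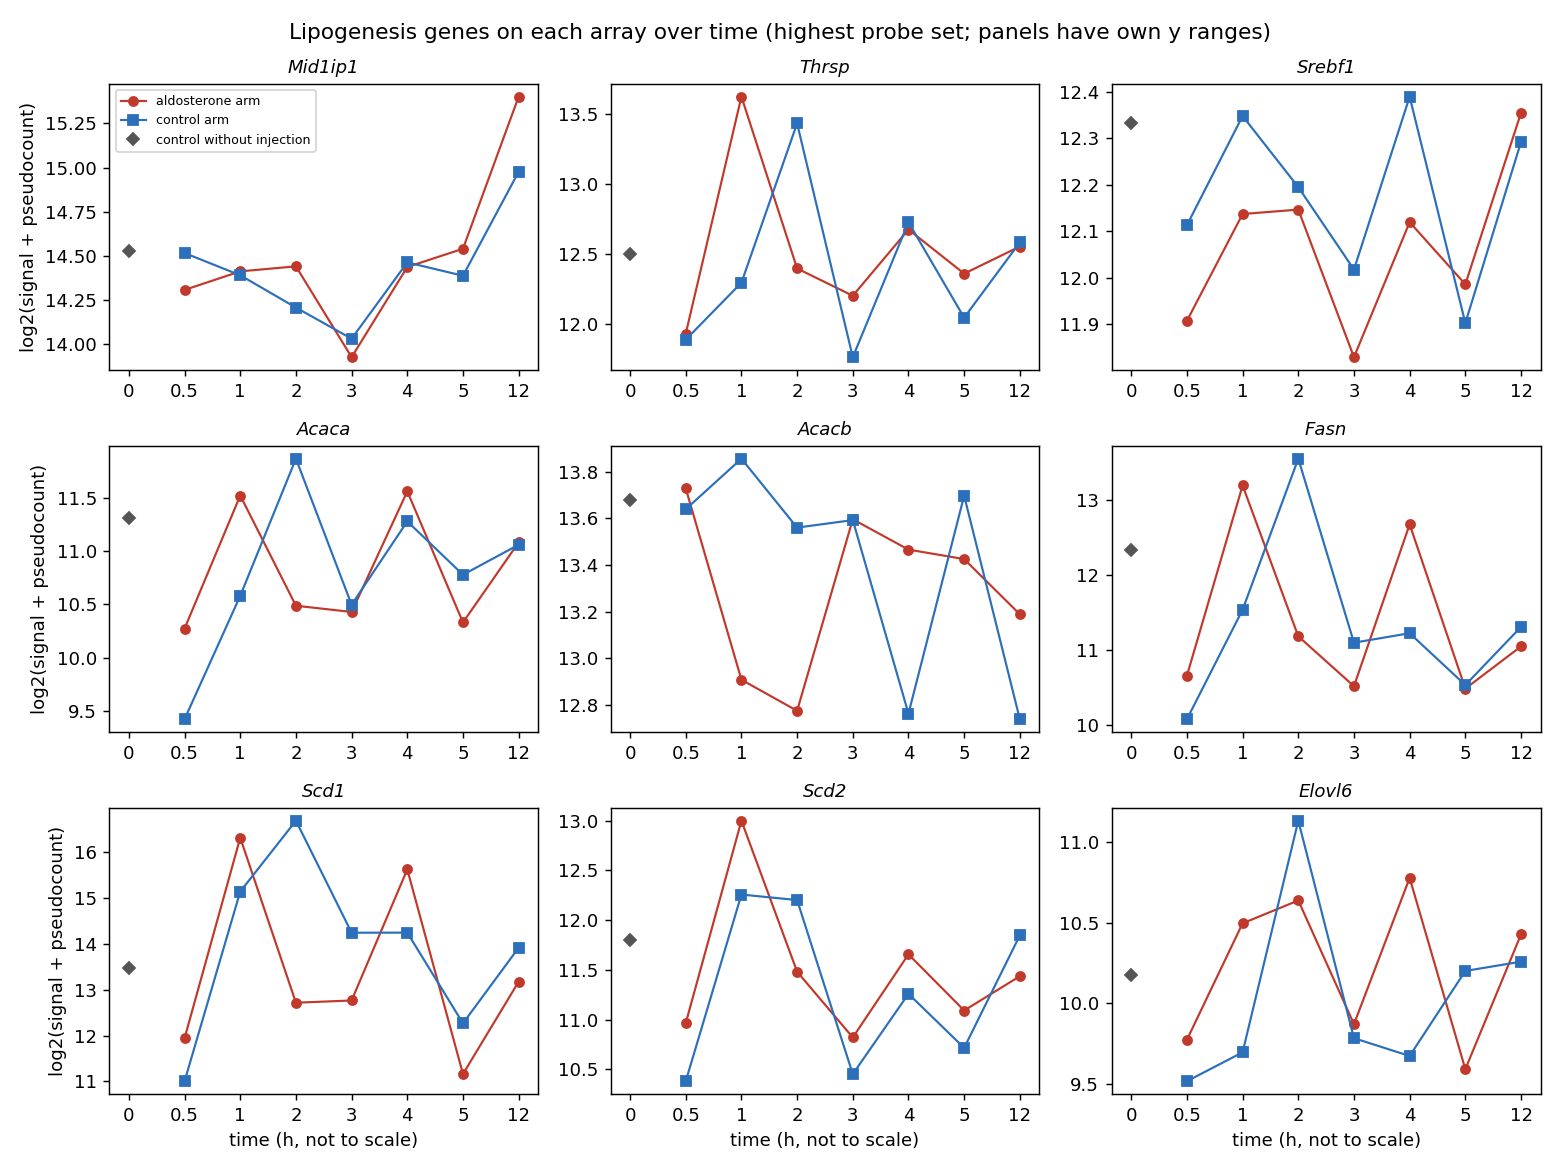
Signal (log2 of signal plus pseudocount) of each of the 9 genes against time in h, with the aldosterone arm in red circles, the control arm in blue squares and the heart without injection as a grey diamond at 0 h. Mid1ip1 ends at 15.40 and 14.98 in the aldosterone and control arms, while Scd1, Fasn and Thrsp peak at 1 h with aldosterone or at 2 h in controls.

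Scd2 was highest at 1 h, where it reached 13.00 with aldosterone and 12.26 in control, and lowest at 3 h, at 10.82 and 10.45. Its range over the time means was 1.99. Both 1 h arrays are those with the high lung marker mean, and without that pair the range was 1.21 and Scd2 was not called. Its call was also lost without the 0.5, 3 or 5 h pair and with the white fat mean as a covariate. The other probe sets of Scd2 did not follow it, with their highest time mean at 0.5 h. The part of the lung transcripts in the 1 h values was not tested.

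The other genes had wide time ranges without a call. The time means of Scd1 spanned 4.26, from 11.47 at 0.5 h to 15.73 at 1 h. Those of Fasn spanned 2.00, with 10.37 at 0.5 h and 12.36 at 2 h, and those of Acaca 1.57, with the highest at 4 h. Thrsp spanned 1.05 and Elovl6 1.24, both lowest at 0.5 h. Acacb spanned 0.72, from 12.96 at 12 h to 13.68 at 0.5 h, and Srebf1 0.40, with its highest time at 12 h. The farthest pairs, both at 2 h, differed by -3.97 for Scd1 and -2.36 for Fasn. Over all 15 arrays the Scd1 signal covered 5.69 on the log2 scale, or 51.5-fold, against 2.78-fold for Mid1ip1.

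The heart without injection lay inside the range of the timed arrays for all 9 genes on their main probe set. Its signals were 14.52 for Mid1ip1, 12.33 for Srebf1, 13.48 for Scd1 and 12.33 for Fasn, a single array without a replicate. Of the 6 probe sets below the filter, 1 for Thrsp, 1 for Acaca, 1 for Acacb, 1 for Scd2 and 2 for Elovl6, the mean deposited signals lay between 216.6 and 454.8. Just inside the filter were the second Scd1 probe set, at 790.9, and the main one of Elovl6, at 1021.9.

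The last comparison sets the genes against white fat markers across the 15 arrays. On their main probe sets, 6 genes followed the mean of the 9 white fat markers with an r of 0.78 or more. That list, with Adipoq (adiponectin) and Car3 (carbonic anhydrase 3), holds none of the 9 genes. Scd1 had a Pearson r of 0.94 (Spearman rho 0.89) over 15 arrays and ranked 1 of 11219 genes. Fasn had r = 0.91 (rho 0.91) and ranked 3. With permutation p-values adjusted over the 11219 genes, Scd1 and Fasn were called (adjusted p = 0.0421 each, from unadjusted p of 1e-05, the smallest that the permutations can give, and 2e-05). These are 2 of the 9 genes, against 0.0713% of all genes (8 called). Since the genes were selected on their signals on these arrays, this count and those for the other array measures below are a description. The permutations exchanged all 15 arrays freely, without regard to time or scan day. With 1 pair of arrays left out, r stayed between 0.92 and 0.95 for Scd1 and between 0.87 and 0.94 for Fasn, but both calls were lost without the 0.5, 3, 4 or 12 h pair (adjusted p of 0.0561 or 0.0841), and that of Fasn without the 2 h pair.

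Acaca (r = 0.84, rho 0.86, rank 14, adjusted p = 0.0777) and Thrsp (r = 0.81, rho 0.80, rank 31, adjusted p = 0.099) had high values that did not pass. The same holds for Elovl6 (r = 0.78, rho 0.73, rank 45, adjusted p = 0.146) and Scd2 (r = 0.78, rho 0.84, rank 47, adjusted p = 0.157). The 99th percentile of r over all genes was 0.68. Other probe sets of these genes mostly did not follow the fat mean. The second of Scd1 had r = 0.83, while the second tested ones of Thrsp and Scd2 had 0.51 (rho 0.22) and 0.09. Below the filter, r was 0.09 for Acaca, -0.34 for Thrsp, -0.09 for Scd2, -0.38 for Acacb, and 0.39 and 0.37 for Elovl6. Without the 2 arrays farthest from the median fat value, r was 0.90 for Scd1, 0.88 for Fasn, 0.81 for Acaca, 0.82 for Thrsp, 0.62 for Elovl6 and 0.83 for Scd2.

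Mid1ip1 showed no relation to the fat markers that passed the test (r = 0.03, rho 0.05, adjusted p = 0.99), nor did Acacb (r = -0.27, rho -0.37, adjusted p = 0.891). Srebf1 had r = 0.46 and rho 0.60 (adjusted p = 0.822). Within the scan day of the 1, 4 and 12 h pairs, the only day with 6 timed arrays, r was 0.95 for Fasn, 0.78 for Scd1, 0.78 for Elovl6, 0.72 for Thrsp, 0.67 for Acaca and 0.66 for Scd2. By permutation of those 6 arrays the unadjusted p was 0.0167 for Fasn and 0.0792 for Scd1. On that day Srebf1 had r = -0.98, opposite in sign to its value over all arrays, and Mid1ip1 -0.33.

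The arrays with the highest fat mean were also those with the highest Scd1 and Fasn signals. The fat mean was highest on the control array at 2 h (1.36), the aldosterone array at 1 h (0.85) and the aldosterone array at 4 h (0.70). These 3 arrays also had the highest Scd1 signals, 16.69, 16.32 and 15.63, and the highest Fasn signals, 13.55, 13.19 and 12.67. Adipoq itself ran from 9.06 to 12.98 in the aldosterone arm and from 8.38 to 13.12 in the control arm. Not every marker followed the mean: Cidea, which is also on the brown fat list, and Lipe were highest on the aldosterone array at 3 h (12.37 and 11.60). Fabp4 was lowest of the aldosterone arm at 4 h (16.46). The brown fat mean on the 3 arrays was 0.37, 0.09 and -0.27. The brown fat marker Ucp1, below the filter, had 10.94, 11.36 and 8.10 there. It was also high in controls at 1 h (10.76) and 4 h (11.01) and without injection (10.95). The relation of the genes to brown fat was not tested. Of the 7 fat markers tested, 3 were called for time, Adipoq, Car3 and Pck1. In whole hearts, fewer cells of a type and less RNA per cell cannot be told apart.

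**Figure D3:**
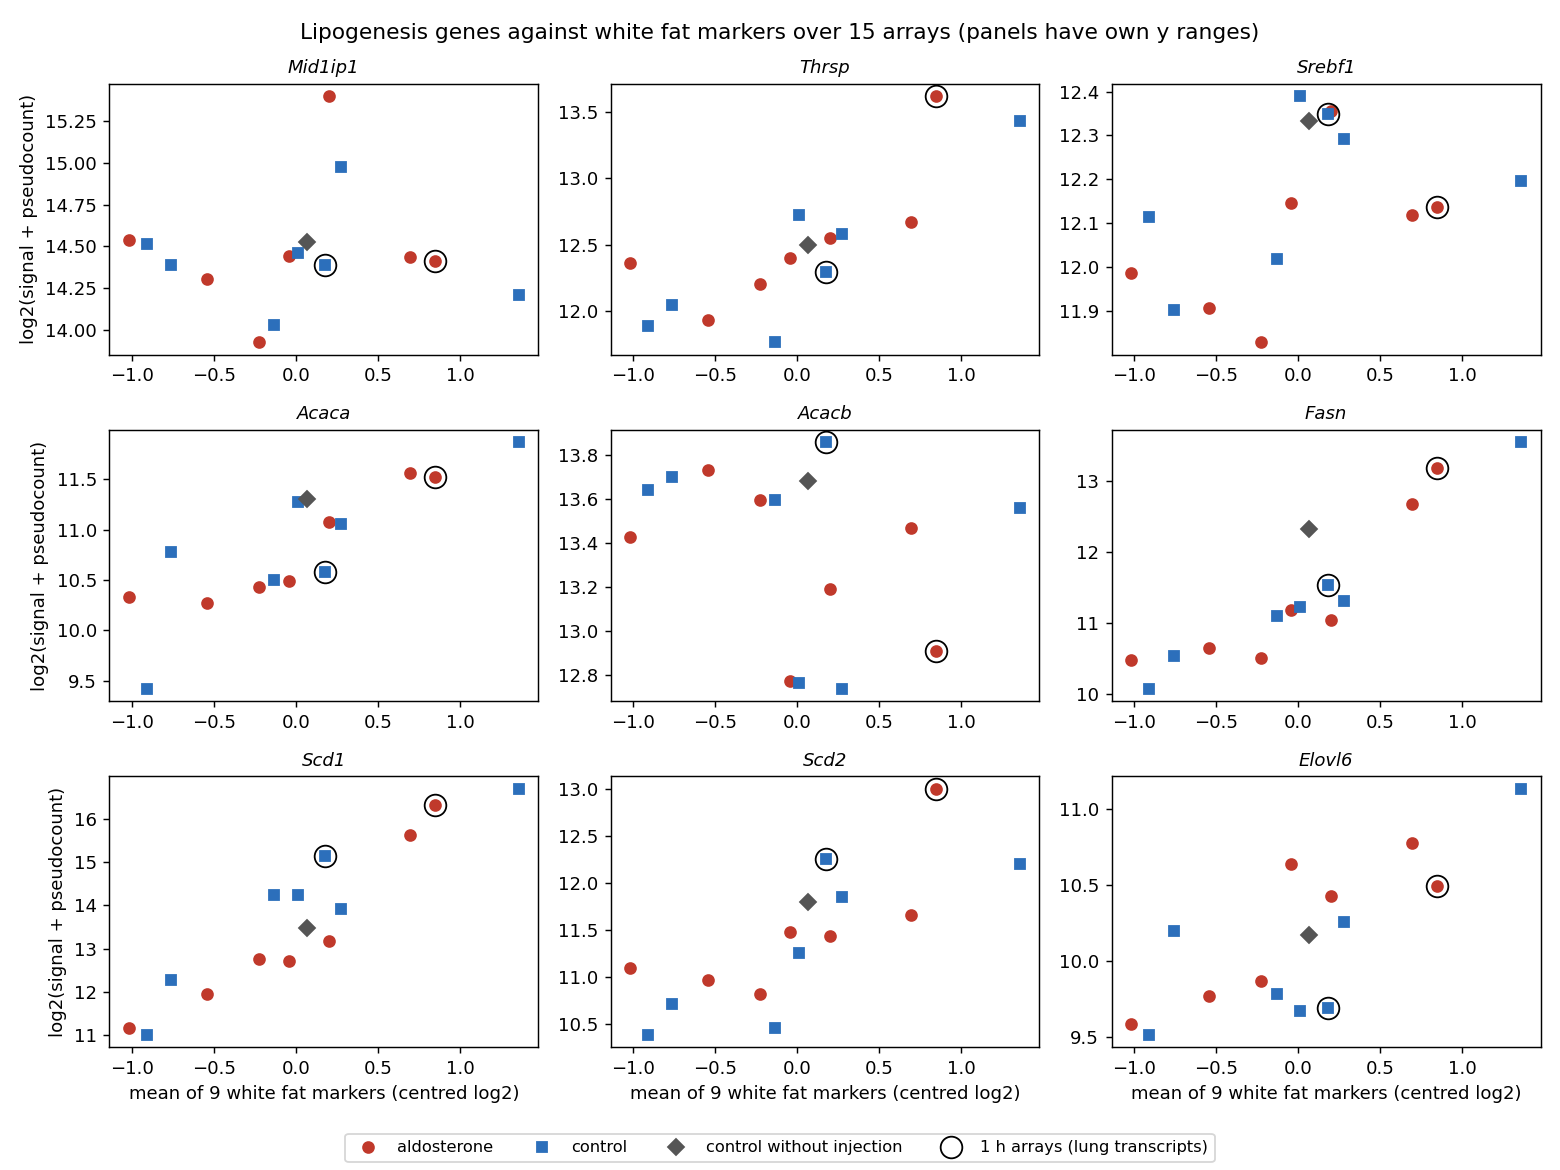
Signal of each gene (log2 of signal plus pseudocount) against the mean of 9 white fat markers (centred log2), 1 point per array, aldosterone in red circles, control in blue squares, the heart without injection as a grey diamond and the 1 h arrays ringed. Scd1 (r = 0.94) and Fasn (r = 0.91) rise along the axis, Mid1ip1 (r = 0.03) does not, and its 2 high points are the 12 h arrays.

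Atrial markers moved with the fat markers over the arrays (r = 0.79, rho 0.80; r = 0.71 without the 2 farthest arrays), so the measures share much of their variation. Their mean ran from -1.43 to 0.81 in the aldosterone arm and from -2.01 to 1.13 in the control arm, with 1.45 in the heart without injection. With the atrial mean, r was 0.84 for Acaca, 0.74 for Fasn and 0.67 for Scd1, and 0 of the 9 genes were called over all genes, against 0.0357% of 11219. Within the scan day with 6 arrays, Acaca kept r = 0.90 with the atrial mean, and Scd1 had 0.01.

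With the white fat mean as a covariate, the interval of the arm difference narrowed for the genes that went with it. This narrowing restates those relations. The SE of Scd1 was 4.30 times smaller, that of Fasn 3.00 times and that of Acaca 1.79 times, while those of Mid1ip1 (1.04 times) and Srebf1 (1.00 times) hardly moved. Fasn then had 0.09 ± 0.12 and Acaca 0.04 ± 0.13. Scd1 had -0.50 ± 0.12, with an unadjusted 95% interval of -0.76 to -0.25, and was not called over all probe sets (limma adjusted p = 0.971). Its second probe set, at 0.04 ± 0.36 without the covariate, is not given here with it. For time, Mid1ip1 and Scd1 were called with this covariate, in place of Mid1ip1 and Scd2, where 181 of all 21296 probe sets were. As the genes were selected on these courses, this is a description.

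On main probe sets, Acacb was set apart by its relation to the Gapdh 3′/5′ ratio. Its r was -0.93 (rho -0.82) over 15 arrays, -0.89 without the 2 farthest arrays and -0.97 within the scan day with 6 arrays (permutation p = 1e-05, the smallest possible; adjusted over 11226 genes p = 0.00102). It was the only one of the 9 genes called in the negative direction, where 6.92% of all genes were, and it ranked 49 from the lowest r. The other Acacb probe set, below the filter, had r = -0.24 (rho -0.16), and the second probe set of Scd2 had r = -0.65 (rho -0.63). The 5 lowest Acacb signals were 12.77, 12.91 and 13.19 with aldosterone (2, 1 and 12 h) and 12.74 and 12.76 in controls (12 and 4 h), and these were the 5 arrays with the highest ratios. With the ratio as a covariate the arm difference of Acacb was 0.04 ± 0.08, against -0.11 ± 0.17 without it. The probe set's distance from the 3′ end was not examined here. Mid1ip1 had r = 0.53 with the ratio (rho 0.51, adjusted p = 0.121).

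**Figure D4:**
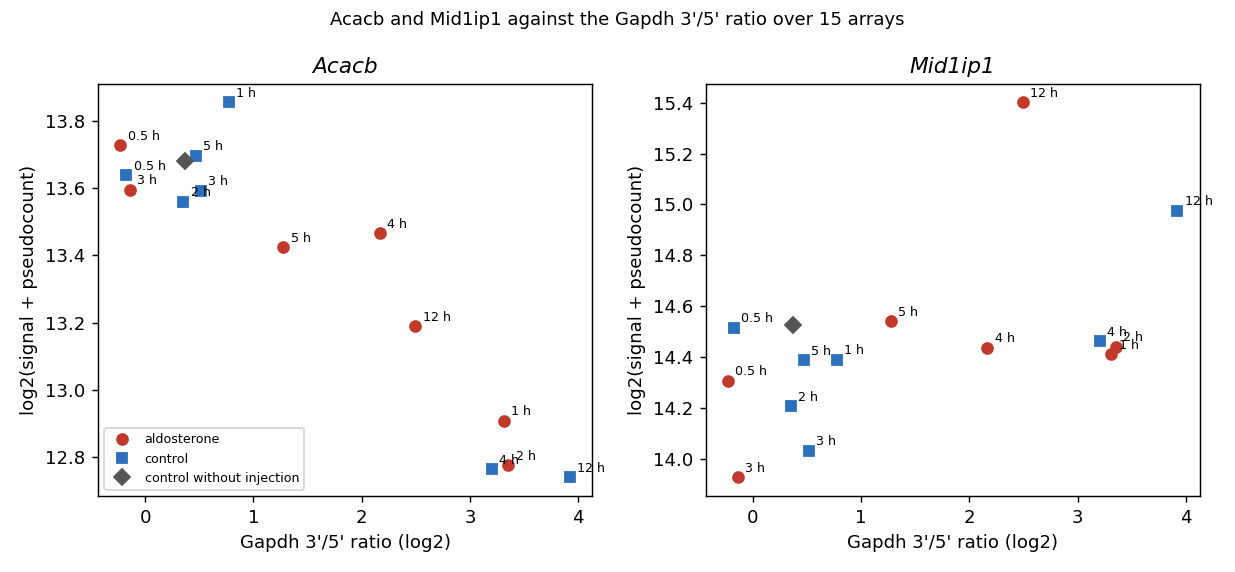
Acacb and Mid1ip1 (log2 of signal plus pseudocount) against the Gapdh 3′/5′ log2 ratio, 1 point per array labelled with its time, aldosterone in red circles, control in blue squares and the heart without injection as a grey diamond. Acacb falls along the axis (r = -0.93), while the Mid1ip1 signals at ratios above 3 lie near 14.4 except on the control array at 12 h (14.98).

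The likeness of other genes to Mid1ip1 was measured as Pearson r over the 15 arrays among 11217 genes. The highest values were those of H1f2 (0.92), a linker histone, Mrps35 (0.88), of the mitochondrial ribosome, and Dtnbp1 (0.85), which encodes dysbindin. Shisa5 and Taf10, a subunit of general transcription factor TFIID, had 0.85 each. 9630050P21Rik and the ubiquitin-conjugating enzyme gene Ube2g1 had 0.84, Syncrip and Tmtc1 0.83, and C1qbp 0.82. All 10 had both 12 h arrays above all earlier ones, by 0.28 to 0.68 on average, against 0.85 for Mid1ip1. Over all genes that share was 3.14%. The 10 were picked for their likeness on the same arrays, the 12 h pair included, so a shared rise at 12 h is nearly given by the choice. Without the 12 h pair r ran from 0.31 (Tmtc1, then rank 2653) to 0.82 (Mrps35, rank 22).

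Of the other lipogenesis genes, Srebf1 was most like Mid1ip1 (r = 0.58 over 15 arrays) and Acacb least (-0.42). Its paralog Thrsp had 0.14, Scd1 -0.13 and Fasn -0.07. Of the 71 genes of the 6 lists, 3 had both 12 h arrays above all earlier ones (4.23%, near the 3.14% of all genes). They were Elovl3, Gpam and Slc25a20, named after their values were seen. None of the 71 was called for time.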

How the data were processed

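RNA of whole mouse hearts was hybridised to 15 Affymetrix arrays. The deposited values are 1 linear signal intensity per probe set and array, which the authors produced in GCOS 1.2, per the submitters' processing notes. The summarising algorithm's settings are not given in the sources used here. Symbols are those of the platform annotation, in which 34958 probe sets have a single symbol, 932 have several and 9211 have none. Sequences and positions are RefSeq's on GRCm38.p6.

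From the deposited intensities, log2(signal + 167.8) was computed (the 25th percentile of all signals), followed by quantile normalization, since array medians differed 1.79-fold. Control probe sets were left out, which left 21296 probe sets (11226 genes) whose average reached 526.7, the median of all signals. The arms and times were compared in limma 3.58.1 (R 4.3.3) with a variance trend and Benjamini-Hochberg adjustment (threshold 0.05), with time as a block for the arms and treatment as a covariate for time. The heart without injection entered only values and correlations. Correlations used 100000 two-sided permutations in Python 3.11.15 (numpy 2.4.6, scipy 1.17.1). The plan had adjusted their p-values over the 9 genes, and they were adjusted over all tested genes instead. The genes that make up a marker mean were left out of the genes set against it. Array number limits the precision. Steps were tested on simulated data.

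The members, gene lists and tests were chosen with earlier results of these data known. Named genes were all members, up to 4 genes per list with the largest aldosterone statistics, and the 10 genes most like Mid1ip1. Marker lists were white fat, brown fat, lung epithelial, atrial, hepatocyte and cardiomyocyte, with 3 of 7, 1 of 6, 7 of 7, 0 of 7, 0 of 3 and 0 of 8 tested genes called for time and none called for aldosterone. Alternatives were another scaling, pseudocount, filter and variance model, array weights, covariates, blocks and leaving out each time.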

Additional observations from a re-analysis of the deposited data

Results flagged for a closer look

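In each arm of 7 arrays, the gap of the highest or lowest array to its neighbour was set against the range of the arm with Dixon's test. Of 36 arms (18 probe sets, 2 arms each), 3 had an array far from the others. Chance gives about 1 in 20 where arms are not picked, but these genes were selected on the same courses, so that rate is no yardstick here and the values are a description. Mid1ip1 at 12 h was the highest of the aldosterone arm at 15.40, with the next array at 14.54. Its control array at 12 h was also the highest of its arm. Scd2 at 1 h was the highest of the aldosterone arm at 13.00, with the next at 11.66. That array carried lung transcripts. Fasn at 2 h was the highest of the control arm at 13.55, with the next at 11.54. That array had the highest white fat mean of the 15. The cause of these values was not tested.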

How the results depend on the processing

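The count of 0 for aldosterone held under all 17 alternatives. The window count of 0 ran from 0 to 31 with 1 pair left out, 31 without the 0.5 h pair. The 410 probe sets called for time became 246 without a filter, 46 without the variance trend and 107 with scan day as a block. With covariates they were 215 (Gapdh ratio), 181 (white fat) and 214 (atrial, chosen after seeing the data), and with 1 pair left out 85 (without 0.5 h) to 891 (without 2 h), with 265, 177 and 239 without 3, 5 and 12 h. The members called for time, 2, became 0 without the variance trend, with the Gapdh covariate or with scan day as a block, and 0 (without 3 h) to 3 (without 2 h) with a pair left out. The members called against white fat, 2, ran from 0 (without 0.5, 3, 4 or 12 h) to 3 (without 5 h, with Acaca), and the permutations' smallest p of 1e-05 limits these calls. With Adipoq alone (chosen after seeing the data) Acaca passed too. Arm differences turned sign for Acaca with the deposited scaling (-0.027) or the atrial mean (-0.18), for Fasn with the atrial mean (-0.21) and for Acacb with the Gapdh ratio (0.041). Left-out pairs gave -0.12 to 0.26 for Acaca, -0.24 to 0.031 for Acacb, -0.20 to 0.47 for Fasn, -0.054 to 0.34 for Thrsp and -0.86 to 0.027 for Scd1, none called, and r of Mid1ip1 with fat from -0.17 to 0.19. The time range of Mid1ip1 was 0.87 without 3 h and 0.49 without 12 h. The cause was not tested. The arms were paired by time throughout, as the block. Without that block 0 probe sets were called as well.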
